A study of Homo sapiens with 12 samples.

Results

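Antisense long noncoding RNAs that carry the name of a neighbouring gene were taken from the RPKM table as every row whose symbol ended in -AS and a single digit. This rule found 149 of the 23346 genes in the table, and it used no measured value. A sense gene, meaning the gene whose symbol remained once the ending was removed, was in the table for 141 of them, and these pairs involved 137 different sense genes. The study sorted cultured SW1990 and CFPAC-1 cells, human pancreatic adenocarcinoma lines, by fluorescence for the cell surface antigen bound by the monoclonal antibody GCTM-5, and sequenced polyadenylated RNA of the highly positive and of the negative cells. There were 4 groups of 3 samples each: GCTM-5 negative SW1990, GCTM-5 positive SW1990, GCTM-5 negative CFPAC-1 and GCTM-5 positive CFPAC-1. No group received a drug or carried an engineered allele, and all cells, negative ones included, went through the same antibody staining and sort. The samples of a group were separate sorts of a single line. The fit pooled the spread of each gene over the 4 groups, so that p-values measure the spread between sorts of these lines together.

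Antisense long noncoding RNAs are transcribed from the strand opposite to a protein coding gene and are usually spliced and polyadenylated, but encode no known protein. Some start close to the promoter of the sense gene and run away from it, others start inside the gene or beyond its end and run through its exons. Individual examples are known to recruit chromatin modifying complexes, to pair with the sense transcript, or to host small nucleolar RNAs in their introns, and for many no function is known. The rule used here went by the symbol alone, and whether each row is noncoding was not checked. Several rows now carry other gene names, among them C1QTNF9B-AS1 (PCOTH), CRYM-AS1 (ABCA15P), ABHD11-AS1 (BICDL3P) and ATPAF1-AS1 (TEX38).

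RPKM is the number of reads of a gene scaled to its length and to the size of its library, so that levels of different genes were compared only on this per length scale. Library totals were worked out from the steps between the deposited values. The shallowest library was positive CFPAC-1 replicate 3 with 9969697 reads, and the deepest, with 26159330, was replicate 1 of the same group. The epithelial marker list (EPCAM, KRT8, KRT18, KRT19, CDH1 and KRT7) was present in all samples, with a summed level of 1595 to 1942 RPKM in negative SW1990, 4360 to 4841 in positive SW1990, 5411 to 6173 in negative CFPAC-1 and 6676 to 8162 in positive CFPAC-1 cells. Summed levels of 6 fibroblast markers (12.6 to 22.6 against 3.90 to 4.88 RPKM) and of 4 endothelial markers (14.8 to 18.8 against 1.47 to 2.05 RPKM) were higher in negative than in positive SW1990 cells, and 5 immune markers summed to 35.1 to 48.2 against 16.0 to 34.7 RPKM. In CFPAC-1 the fibroblast list lay between 1.42 and 2.4 RPKM, the endothelial list between 0.751 and 1.49, and the immune list between 160.5 and 224.1. The part of these marker differences in the results given here was not tested.

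Whether strand was used when reads were counted is not stated, and the sources differ on whether the library kit kept it. Without strand, reads from exons shared by an antisense RNA and its sense gene cannot be told apart. On GRCh37 with GENCODE annotation, 137 of the 149 antisense genes could be placed. Of the 129 pairs with both genes placed, 71 shared exon bases, 44 overlapped without a shared exon base, 12 lay head to head without overlap and 2 converged without overlap. The 12 pairs with a gene that could not be placed include those of PCNA-AS1, HIF1A-AS2, NPPA-AS1 and FBXO22-AS1. In RefSeq the spans of PCNA-AS1, HIF1A-AS2 and NPPA-AS1 overlap those of their sense genes. The exon bases that a pair shares are given for part of the pairs below. Exons of 85 antisense genes share bases with a protein coding gene on the opposite strand, which is not always the sense gene.

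Of the 149 antisense RNAs, 19 had no read in any sample, 31 had reads but a mean under 0.1 RPKM, and 99 reached a mean of at least 0.1 RPKM and were tested. This was 66.4% of the antisense RNAs, against 69.7% of the genes outside the named noncoding classes and 39.9% of 143 genes named LINC. The median of those kept was 1.41 RPKM for antisense RNAs, 0.676 for LINC genes and 7.21 for the other genes. A mean of at least 10 RPKM was reached by 17 antisense RNAs. Summed over all 149, the level was 685 to 713 RPKM in negative SW1990, 735 to 742 in positive SW1990, 766 to 832 in negative CFPAC-1 and 951 to 1071 in positive CFPAC-1 cells. In CFPAC-1 the mean of this sum was 796 in negative and 1001 in positive cells, while PCNA-AS1 alone had means of 60.4 and 252 RPKM.

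The antisense RNA with the highest mean was PCNA-AS1 (163.1 RPKM), followed by HIF1A-AS2 (122.8), C17orf76-AS1 (50.04), AFAP1-AS1 (39.6), ZNFX1-AS1 (36.8) and RUSC1-AS1 (36.3). C17orf76-AS1 and ZNFX1-AS1 are now named SNHG29 and ZFAS1 and are hosts of small nucleolar RNAs. HIF1A-AS2, named for the oxygen regulated subunit of the hypoxia-inducible factor, measured 82.7, 100.5 and 105 RPKM in negative SW1990, 85.7, 77.7 and 72.2 in positive SW1990, 183, 153 and 148 in negative CFPAC-1 and 180.2, 173.8 and 111.1 in positive CFPAC-1 cells. It lay between 82.0% and 106% of the RPKM of HIF1A in all 12 samples, and neither gene passed the test with sorting in either line (adjusted p of 0.25 and 0.74 for HIF1A-AS2). RUSC1-AS1, at 22.5 to 48.1 RPKM, also passed no test of sorting (log2 difference 0.43 ± 0.20 (SE) in SW1990, adjusted p = 0.14, and 0.13 ± 0.20 in CFPAC-1, adjusted p = 0.67), while the adaptor gene RUSC1 rose in positive cells of both lines, by 0.61 ± 0.13 and 0.91 ± 0.13. In 23 of the 141 pairs the antisense RNA had the higher mean RPKM.

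**Figure D1:**
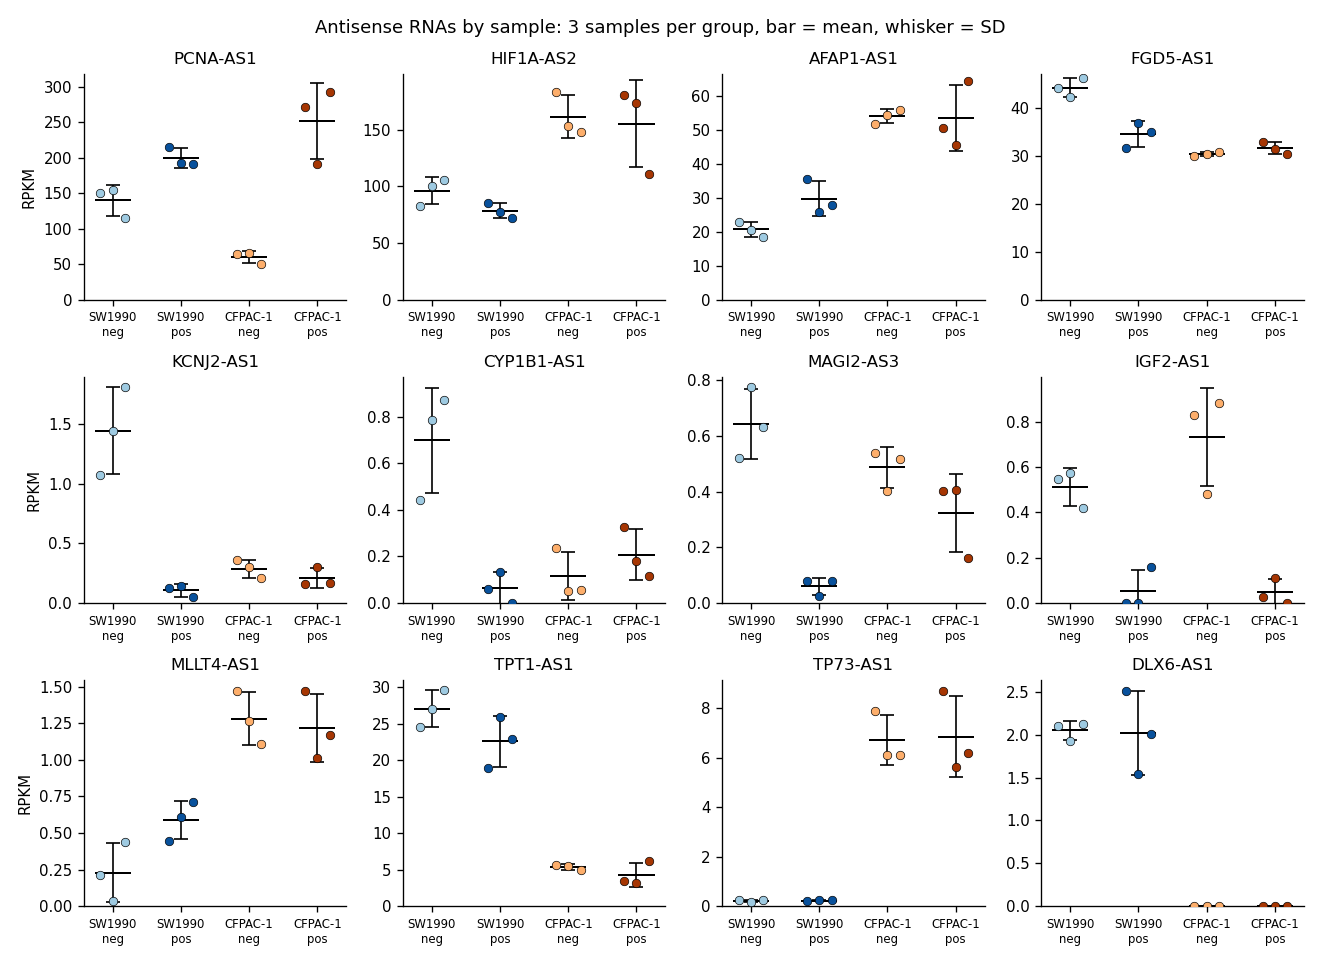
RPKM (linear axis from 0, a separate scale for each panel) of 12 antisense RNAs in the 12 samples. Points are samples, horizontal bars group means and whiskers the SD over 3 samples, cut at 0. KCNJ2-AS1 stands out in negative SW1990, PCNA-AS1 is lowest in negative CFPAC-1 (50.3 to 66.2 RPKM), and DLX6-AS1 is at 0 in all 6 CFPAC-1 samples.

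Head to head pairs offer a view in which the genes of a pair have separate exons. TPT1-AS1 does share 98 exon bases with another gene, SLC25A30. Sequences are shown for the interval between the outermost annotated starts of 4 of the 12 head to head pairs, chosen with their values known because the antisense RNA differed between the lines, since this interval is all that separates the starts of both genes. They are GRCh37 bases on the strand of the sense gene, 5′ to 3′, and capitals mark GC boxes (GGGCGG or its reverse complement CCGCCC) and CCAAT boxes (CCAAT or ATTGG), the only motifs searched, which do not overlap here.
MLLT4-AS1 and MLLT4 (chr6:168227514-168227572, plus strand): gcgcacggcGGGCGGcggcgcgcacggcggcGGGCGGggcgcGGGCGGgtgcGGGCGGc
TPT1-AS1 and TPT1 (chr13:45915420-45915479, minus strand): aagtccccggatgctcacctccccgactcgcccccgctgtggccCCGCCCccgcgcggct
BOLA3-AS1 and BOLA3 (chr2:74375040-74375133, minus strand): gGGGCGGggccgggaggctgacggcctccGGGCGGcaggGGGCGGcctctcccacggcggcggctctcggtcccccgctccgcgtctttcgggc
FLVCR1-AS1 and FLVCR1 (chr1:213031482-213031616, plus strand): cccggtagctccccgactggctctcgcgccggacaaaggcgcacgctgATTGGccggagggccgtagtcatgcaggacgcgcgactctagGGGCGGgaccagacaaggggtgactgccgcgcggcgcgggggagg

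The intervals are 59, 60, 94 and 135 bases long, 94.9%, 78.3%, 83.0% and 72.6% G or C, and hold 4, 1, 3 and 1 GC boxes. Of 35116 RefSeq promoters (GRCh38.p14), 22.9%, 23.1%, 30.4% and 35.5% hold a GC box in the stretch of the same length upstream of the start. A CCAAT box was found only in the interval of FLVCR1-AS1, and 22.1% of promoters hold one in 135 bases.

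Differences were tested on log2(RPKM + 0.1) with limma over the 16236 genes with a mean of at least 0.1 RPKM, and the threshold for a call was an adjusted p of 0.05 by the Benjamini-Hochberg method. Adding 0.1 understates the change of genes near that level, so that fold changes of antisense RNAs under about 1 RPKM depend on it. In these bulk samples fewer cells with an RNA and less of it per cell cannot be told apart. Antisense RNAs named for the largest changes had to have groups without overlap, so that separation of their samples is no further support.

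GCTM-5 positive SW1990 cells had lower levels of KCNJ2-AS1, CYP1B1-AS1, MAGI2-AS3 and IGF2-AS1 and higher levels of MLLT4-AS1, HLA-F-AS1 and ARHGAP5-AS1 than negative ones. In all, 7 of the 99 tested antisense RNAs were higher and 10 lower in positive cells, or 7.07% and 10.1%, where 11.3% of all tested genes were higher and 16.9% lower. The median log2 difference was -0.04 for the antisense RNAs and -0.04 for all genes. Only 1 of the 7 and 6 of the 10 changed over 2-fold, and the share of all tested genes at this limit is not given. Without positive SW1990 replicate 2 or replicate 3 the count of higher antisense RNAs was 4 in place of 7.

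KCNJ2-AS1 is antisense to the gene of an inward rectifier potassium channel and shares 185 exon bases with it. It measured 1.08, 1.44 and 1.81 RPKM in negative SW1990 and 0.127, 0.145 and 0.0462 in positive SW1990 cells, without overlap. The fall of 2.91 ± 0.30 (SE) on the log2 scale (adjusted p = 2.08e-05) was the largest among the antisense RNAs in this line, and KCNJ2 fell by 3.41 ± 0.32. CYP1B1-AS1, paired with a cytochrome P450 that oxidises oestrogens and polycyclic aromatic hydrocarbons, measured 0.444, 0.784 and 0.871 RPKM in negative and 0.0588, 0.134 and 0 in positive SW1990 cells. These groups did not overlap either, and the positive libraries held 0 to 4 reads of it. It fell by 2.32 ± 0.43 (adjusted p = 0.00147) and CYP1B1 by 2.39 ± 0.34, with 595 exon bases in common. With a pseudocount of 0.01 or 1 the log2 change of CYP1B1-AS1 was -3.88 or -0.67, called in both cases.

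MAGI2-AS3 measured 0.523, 0.775 and 0.632 RPKM in negative and 0.0775, 0.0253 and 0.0788 in positive SW1990 cells, or 100 to 168 against 4 to 14 reads. Every negative sample lay above every positive sample. It fell by 2.22 ± 0.30 (adjusted p = 0.000163), whereas MAGI2, a scaffold protein of cell junctions, measured 0.50 to 0.715 against 0.287 to 0.514 RPKM in the same samples and did not pass the test (log2 difference -0.57 ± 0.28, adjusted p = 0.16). Whether the changes of the pair differed was not tested. IGF2-AS1 measured 0.548, 0.574 and 0.418 RPKM in negative and 0, 0 and 0.159 in positive SW1990 cells. It fell by 2.15 ± 0.41 (adjusted p = 0.00202), and IGF2, an imprinted growth factor, fell by 3.78 ± 0.21, from 34.8 to 39.8 RPKM in negative to 1.98 to 3.81 RPKM in positive cells. IGF2-AS1 shares 333 exon bases with IGF2.

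A1BG-AS1, antisense to a plasma glycoprotein gene, measured 3.68, 2.14 and 3.98 RPKM in negative and 1.26, 1.49 and 1.59 in positive SW1990 cells and fell by 1.08 ± 0.27 (adjusted p = 0.0106). This call was lost without negative SW1990 replicate 3 (adjusted p = 0.0523). DNMBP-AS1, antisense to an exchange factor for the small GTPase CDC42, went from 5.23, 3.82 and 3.97 to 2.86, 1.31 and 2.15 RPKM, a fall of 1.06 ± 0.25 (adjusted p = 0.00686). Its sense gene DNMBP fell by 0.69 ± 0.16 and shares 686 exon bases with it. The other 4 antisense RNAs that fell were BDNF-AS1, FGD5-AS1, NPPA-AS1 and THAP7-AS1, by 0.36 to 0.62. Without negative SW1990 replicate 2 the call of BDNF-AS1 was lost (adjusted p = 0.0519). That of NPPA-AS1 was lost without negative replicate 1 or 3 or positive replicate 1 or 2 of SW1990 (up to 0.0940), and that of THAP7-AS1 without negative replicate 1 or 2 or positive replicate 1 or 3 (up to 0.133).

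Among the antisense RNAs that rose in positive SW1990 cells, MLLT4-AS1 changed most. Its start lies across the interval shown above from that of MLLT4, the gene of the adherens junction protein afadin, and they share no exon base. It measured 0.211, 0.0372 and 0.440 RPKM in negative and 0.446, 0.612 and 0.708 in positive cells, 2 to 18 against 20 to 29 reads. The groups were adjacent but did not overlap, and the rise was 1.26 ± 0.40 (adjusted p = 0.0340). MLLT4 rose by 1.13 ± 0.12, from 5.49 to 7.27 RPKM in negative to 13.2 to 14.7 RPKM in positive cells. The call of MLLT4-AS1 was lost without positive SW1990 replicate 2 or 3 or negative SW1990 replicate 1 or 2 (adjusted p up to 0.109, and a log2 change of 0.73 without negative replicate 2), and with a pseudocount of 0.01 (adjusted p = 0.0516).

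HLA-F-AS1, antisense to a non-classical MHC class I gene, measured 4.16, 3.43 and 4.42 RPKM in negative and 5.90, 7.82 and 7.26 in positive SW1990 cells and rose by 0.79 ± 0.17 (adjusted p = 0.00495). HLA-F did not pass the test (-0.37 ± 0.28, adjusted p = 0.36), and its groups overlapped. ARHGAP5-AS1, without an exon base shared with ARHGAP5, went from 2.20, 2.28 and 2.74 to 4.51, 4.51 and 3.61 RPKM, a rise of 0.78 ± 0.16 (adjusted p = 0.00286), while ARHGAP5 stayed between 26.2 and 29.6 RPKM in the 6 samples (0.07 ± 0.10, adjusted p = 0.64). FBXO22-AS1 rose by 0.43 ± 0.09 (adjusted p = 0.00463). The remaining 3 that rose, AFAP1-AS1, PCNA-AS1 and LGALS8-AS1, had changes of 0.52 to 0.84. Their calls each depended on single libraries: that of AFAP1-AS1 was lost without negative replicate 3 or positive replicate 1 (adjusted p up to 0.0790), that of PCNA-AS1 without negative replicate 1 or 3 or any 1 of the positive replicates (up to 0.158), and that of LGALS8-AS1 without negative replicate 1 or 2 or positive replicate 2 or 3 (up to 0.118), all of SW1990.

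In CFPAC-1, PCNA-AS1, MYLK-AS1, FBXL19-AS1 and GLIS3-AS1 were higher in GCTM-5 positive cells and IGF2-AS1, ABHD11-AS1, EPB41L4A-AS1 and A1BG-AS1 were lower. Of the 99 tested, 14 were higher (14.1%) and 10 lower (10.1%), against 22.3% and 14.2% of all tested genes. The median log2 difference was 0.13 for the antisense RNAs and 0.05 for all genes. With each sample centred on the median of its genes the counts turned to 11 higher and 13 lower, and the share of called antisense RNAs that were higher went from 58.3% to 45.8%. Over all called genes this share went from 61.1% to 45.7%. The count of higher antisense RNAs dropped to 8 without negative CFPAC-1 replicate 1 and to 9 without positive replicate 1, and that of lower ones dropped to 4 without negative CFPAC-1 replicate 3 and to 6 without negative replicate 1 or 2 or positive replicate 1 or 2.

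PCNA encodes the sliding clamp that holds DNA polymerases on the template. PCNA-AS1 measured 64.7, 66.2 and 50.3 RPKM in negative and 272, 191 and 293 in positive CFPAC-1 cells, means of 60.4 ± 8.80 and 252 ± 53.9 (SD, n = 3), and rose by 2.04 ± 0.17 (adjusted p = 1.64e-05). The groups lay far apart. PCNA itself rose by 1.93 ± 0.13, from 38.4 to 44.1 RPKM in negative to 139 to 180 RPKM in positive cells, and PCNA-AS1 was at 131% to 189% of PCNA in all 12 samples of both lines.

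MYLK-AS1, antisense to myosin light chain kinase with 598 exon bases in common, measured 0.949, 0.302 and 0.794 RPKM in negative and 1.87, 2.25 and 2.25 in positive CFPAC-1 cells. All positive samples were above all negative ones, and the rise was 1.62 ± 0.37 (adjusted p = 0.00579) with MYLK rising by 0.83 ± 0.16. FBXL19-AS1 went from 0.507, 0.579 and 0.648 to 1.93, 1.52 and 2.01 RPKM, a rise of 1.497 ± 0.24 (adjusted p = 0.000644). Its sense gene, of a ubiquitin ligase subunit, lay between 5.78 and 8.4 RPKM in all 6 samples and did not pass the test (-0.04 ± 0.13, adjusted p = 0.84). The pair shares 82 exon bases. GLIS3-AS1, antisense to a zinc finger transcription factor of the pancreatic islet, had 0 to 2 reads in negative and 3 to 8 reads in positive CFPAC-1 libraries. Its levels of 0, 0 and 0.137 against 0.157, 0.584 and 1.10 RPKM were adjacent, and the fitted rise of 2.16 ± 0.56 (adjusted p = 0.0104) became 0.59 with a pseudocount of 1 and 4.29 with 0.01, called in both.

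RAD21-AS1, named for a subunit of the cohesin ring, rose by 1.13 ± 0.29 (adjusted p = 0.00929), from 0.153, 0.159 and 0.0998 to 0.380, 0.424 and 0.449 RPKM. WWTR1-AS1, named for the YAP partner TAZ, rose by 1.01 ± 0.26 (adjusted p = 0.0112), from 0.242, 0.162 and 0.266 to 0.675, 0.502 and 0.473 RPKM, and stayed at or under 1.24% of WWTR1 in all 12 samples. The groups of both RNAs were separate. The further antisense RNAs that rose in CFPAC-1 were CBR3-AS1, FBXO22-AS1, IDI2-AS1, LPP-AS2, MCM3AP-AS1, NOP14-AS1, SLC25A5-AS1 and UCKL1-AS1, by 0.26 to 0.74. NOP14-AS1 and SLC25A5-AS1 held in all 12 fits that left out 1 library. The calls of IDI2-AS1 and UCKL1-AS1 were lost without negative CFPAC-1 replicate 1 or positive replicate 1 (adjusted p up to 0.0911 and 0.0808), and that of CBR3-AS1 without negative replicate 1 or 3 (up to 0.0682). FBXO22-AS1 was lost without negative CFPAC-1 replicate 1 or 3, positive CFPAC-1 replicate 1 or 2, negative SW1990 replicate 2 or positive SW1990 replicate 3 (up to 0.179), with median centring (0.25) and with voom on the recovered reads (0.0969). MCM3AP-AS1 was lost without negative CFPAC-1 replicate 1 or 2, any 1 of the positive CFPAC-1 replicates or positive SW1990 replicate 3 (up to 0.127), with median centring (0.0952) and without the filter on low values (0.0503).

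IGF2-AS1 measured 0.831, 0.483 and 0.883 RPKM in negative and 0.0269, 0.112 and 0 in positive CFPAC-1 cells, or 30 to 50 against 0 to 6 reads, and fell by 2.54 ± 0.41 (adjusted p = 0.000759). IGF2 fell by 1.64 ± 0.21. With a pseudocount of 1 the log2 change of IGF2-AS1 was -0.72 in CFPAC-1 and -0.53 in SW1990, with 0.01 it was -4.33 and -4.34, and all 4 were called. ABHD11-AS1 went from 5.43, 6.19 and 8.06 RPKM to 1.37, 4.05 and 1.48, a fall of 1.62 ± 0.45 (adjusted p = 0.0145). This call was lost without negative CFPAC-1 replicate 3 or positive CFPAC-1 replicate 1 or 3 (adjusted p up to 0.0603).

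EPB41L4A-AS1 was among the abundant antisense RNAs and measured 33.2, 36.7 and 32.3 RPKM in negative and 10.3, 20.0 and 14.0 in positive CFPAC-1 cells. It fell by 1.25 ± 0.24 (adjusted p = 0.00230). EPB41L4A, a gene of the band 4.1 family, stayed at 1.73 to 2.75 RPKM (0.03 ± 0.22, adjusted p = 0.93). The annotation used here gives the pair 2200 exon bases in common, and the annotation the authors counted with is not given. A1BG-AS1 fell by 1.16 ± 0.27 (adjusted p = 0.00635), from 0.844, 0.730 and 1.27 to 0.323, 0.30 and 0.471 RPKM. KDM5B-AS1, now named PCAT6, lies head to head with the histone demethylase gene KDM5B, and went from 4.10, 3.11 and 3.94 to 1.85, 1.88 and 2.10 RPKM, a fall of 0.89 ± 0.28 (adjusted p = 0.0278), with KDM5B falling by 0.76 ± 0.12. CDKN2B-AS1, from the locus of the cell cycle inhibitor CDKN2B, fell by 0.63 ± 0.22 (adjusted p = 0.0390), from 1.07, 1.15 and 0.929 to 0.588, 0.611 and 0.733 RPKM. The call of KDM5B-AS1 was lost without negative CFPAC-1 replicate 1 or 3 or positive replicate 1 or 2 (adjusted p up to 0.0842), and that of CDKN2B-AS1 without any 1 of the negative CFPAC-1 replicates, positive CFPAC-1 replicate 1 or 2 or positive SW1990 replicate 3 (up to 0.118). CDKN2B-AS1 was also not called with a pseudocount of 0.01 (adjusted p = 0.0520) or without the filter on low values (0.0513). The other 4 that fell in CFPAC-1 were ZNFX1-AS1 (-0.40 ± 0.11), NPPA-AS1 (-0.42 ± 0.13), ST7-AS1 (-0.58 ± 0.17) and MRVI1-AS1 (-1.56 ± 0.52). ZNFX1-AS1 held in all 12 fits, NPPA-AS1 was lost without any 1 of the negative CFPAC-1 replicates or positive replicate 3 (up to 0.0822), ST7-AS1 without negative replicate 2 or 3 or positive replicate 1 or 2 (up to 0.0836), and MRVI1-AS1 without any CFPAC-1 library other than positive replicate 3 (up to 0.130) and with a pseudocount of 0.01 (0.0598).

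**Figure D2:**
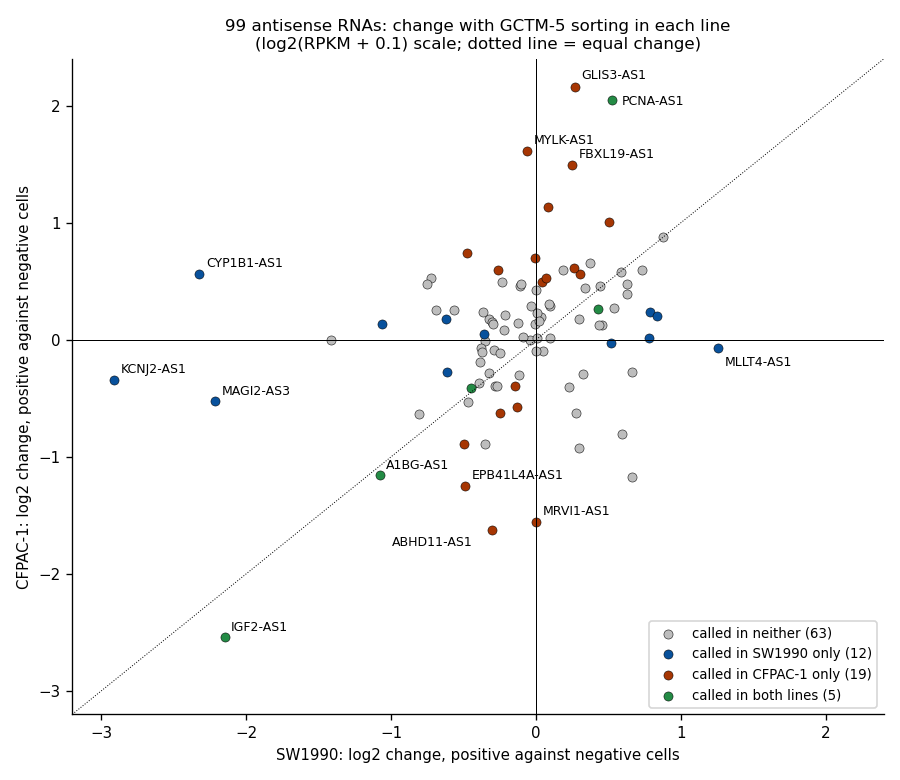
Log2 change with sorting in SW1990 (horizontal) and CFPAC-1 (vertical) of the 99 tested antisense RNAs, on the log2(RPKM + 0.1) scale. Points are antisense RNAs, coloured by the line in which they were called, with 63 called in neither. KCNJ2-AS1, CYP1B1-AS1 and MAGI2-AS3 lie far to the left, and IGF2-AS1 and A1BG-AS1 lie low in both lines.

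Across the lines, 17 antisense RNAs were called in SW1990 and 24 in CFPAC-1, of which 5 were called in both. PCNA-AS1 and FBXO22-AS1 were higher in both, IGF2-AS1, A1BG-AS1 and NPPA-AS1 were lower in both, and 0 were called in opposite directions. These were 2.02%, 3.03% and 0% of the 99, against 4.00%, 4.88% and 3.38% of all tested genes. PCNA-AS1, FBXO22-AS1 and NPPA-AS1 could not be placed, and A1BG-AS1 and IGF2-AS1 share 468 and 333 exon bases with their sense genes. The part of sense reads in these calls was not tested. The FBXO22-AS1 call in CFPAC-1 was lost with median centring and with voom, as given above. The test of the difference between the changes called 12 antisense RNAs. For 2 of them the SW1990 change was the higher one and for 10 the lower, 2.02% and 10.1%, against 9.16% and 17.8% of all tested genes. The smallest adjusted p values belonged to PCNA-AS1, whose rise was 1.52 ± 0.24 smaller in SW1990 (adjusted p = 0.000766), and KCNJ2-AS1, with a difference of -2.57 ± 0.43 (adjusted p = 0.00112). KCNJ2-AS1 was already at 0.205 to 0.358 RPKM in negative and at 0.157 to 0.305 in positive CFPAC-1 cells.

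CYP1B1-AS1 differed by -2.89 ± 0.61 (adjusted p = 0.00435) and MAGI2-AS3 by -1.69 ± 0.43 (adjusted p = 0.0122). Neither passed the test within CFPAC-1, where CYP1B1-AS1 measured 0.0522 to 0.234 RPKM in negative and 0.114 to 0.327 in positive cells, and MAGI2-AS3 0.403 to 0.541 and 0.162 to 0.406. CBR3-AS1, antisense to a carbonyl reductase gene, measured 1.83, 1.48 and 1.49 RPKM in negative and 0.800, 1.30 and 1.33 in positive SW1990, but 0.966, 1.31 and 0.944 in negative and 1.80, 1.88 and 1.84 in positive CFPAC-1 cells. The samples separated in opposite directions in the lines, with a difference of -1.21 ± 0.30 (adjusted p = 0.0110). The change of CBR3-AS1 did not pass the test in SW1990 (-0.47 ± 0.21, adjusted p = 0.12) and passed it in CFPAC-1 (0.74 ± 0.21, adjusted p = 0.0179). Its sense gene CBR3, with 710 exon bases in common, fell in SW1990 (-1.40 ± 0.17) and rose in CFPAC-1 (1.05 ± 0.17). The part of CBR3 reads in the values of CBR3-AS1 was not tested. FGD5-AS1, at 30.1 to 46.4 RPKM, differed by -0.41 ± 0.11 (adjusted p = 0.0163), a call that was lost when samples were centred on their medians (-0.25, adjusted p = 0.113).

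Both genes were tested in 92 pairs. In SW1990 8 of them were called in the same direction and 1 in opposite directions, with 8 called for the antisense RNA alone, 23 for the sense gene alone and 52 for neither. In CFPAC-1 9 pairs were called in the same direction, 1 in opposite directions, 13 for the antisense RNA alone, 25 for the sense gene alone and 44 for neither. Of all tested genes 11.3% were higher and 16.9% lower in positive SW1990 cells, and 22.3% and 14.2% in positive CFPAC-1 cells. Whether pairs were called together more often than these shares give was not tested. Among the 56 pairs that share exon bases, 6 were called in the same direction in each line. Among the 27 placed pairs without a shared exon base the count was 1 in SW1990, which was MLLT4-AS1, and 2 in CFPAC-1, which were KDM5B-AS1 and SLC25A5-AS1. The median distance between the changes of a pair, 0.33 on the log2 scale in SW1990 and 0.39 in CFPAC-1, was 0.33 and 0.43 for pairs with and 0.40 and 0.33 for pairs without shared exon bases.

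**Figure D3:**
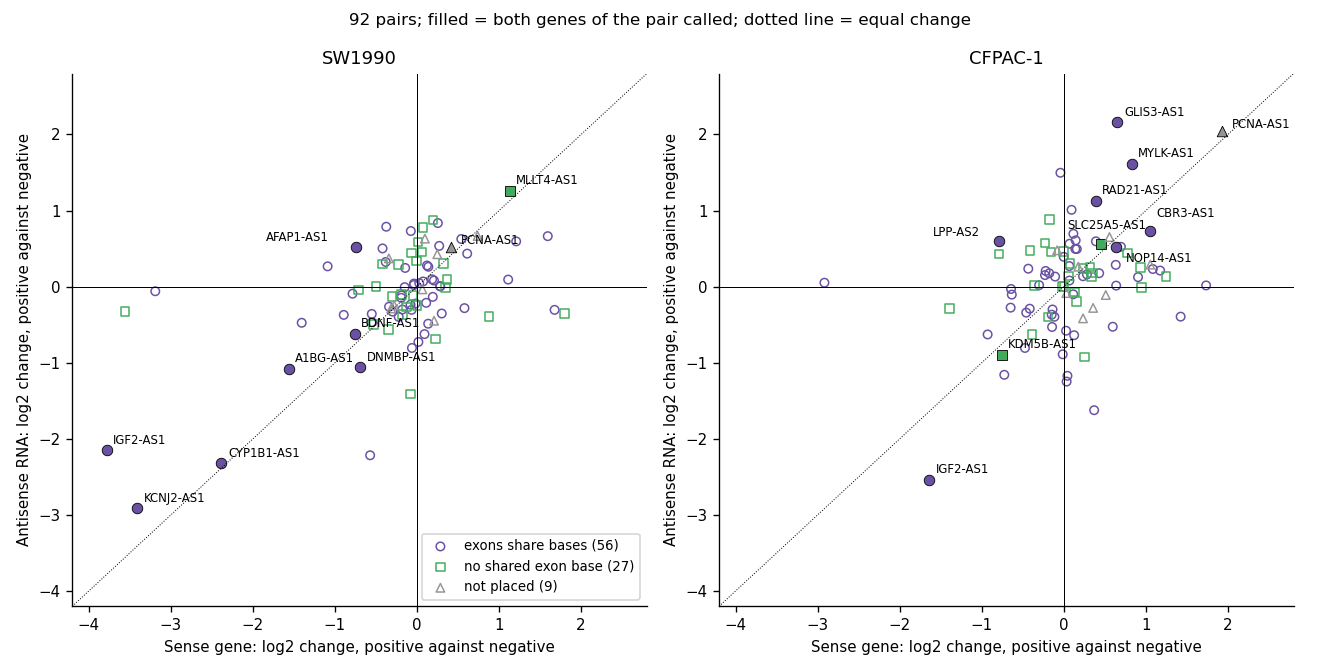
Log2 change with sorting of the sense gene (horizontal) and of its antisense RNA (vertical) for 92 pairs in each line. Circles mark pairs that share exon bases, squares pairs that do not and triangles pairs that could not be placed, and filled symbols mark pairs with both genes called. KCNJ2-AS1, CYP1B1-AS1 and IGF2-AS1 lie low and left in SW1990, PCNA-AS1 lies close to the dotted line of equal change in CFPAC-1, and AFAP1-AS1 and LPP-AS2 lie above the axis with their sense genes to the left of it.

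The pair called in opposite directions in SW1990 was that of AFAP1-AS1 and AFAP1, which encodes an actin filament binding protein. AFAP1-AS1 (chr4:7755804-7780655, plus strand) shares 5083 exon bases with AFAP1. It measured 23.0, 20.7 and 18.5 RPKM in negative and 35.7, 25.8 and 28.1 in positive SW1990 cells, while AFAP1 measured 41.4, 39.8 and 46.4 in negative and 24.1, 24.8 and 27.2 in positive cells. The antisense RNA rose by 0.52 ± 0.14 (adjusted p = 0.0184) and AFAP1 fell by 0.74 ± 0.09 (adjusted p = 8.2e-05). In CFPAC-1, AFAP1 fell by 0.64 ± 0.09 with AFAP1-AS1 at 45.7 to 64.4 RPKM and not called (-0.03 ± 0.14, adjusted p = 0.90). Without negative SW1990 replicate 3 or positive SW1990 replicate 1 the rise of AFAP1-AS1, and with it the pair, was no longer called. LPP-AS2 and LPP, a focal adhesion protein gene, made the pair of CFPAC-1: LPP-AS2 rose by 0.59 ± 0.21 (adjusted p = 0.0471), from 0.820, 1.02 and 0.922 to 1.54, 1.66 and 1.15 RPKM, and LPP fell by 0.79 ± 0.14 (adjusted p = 0.0015). The LPP-AS2 call lay next to the threshold, was lost with median centring (0.0997), without the filter on low values (0.0665), with a pseudocount of 0.01 (0.0524) and with a replicate block (0.0579), and held in 3 of the 12 fits that left out 1 library, those without positive CFPAC-1 replicate 3, positive SW1990 replicate 1 and positive SW1990 replicate 2.

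Some antisense RNAs kept a near constant share of their sense gene and others did not. FBXO22-AS1 was at 451% to 530% of FBXO22 and SLC25A5-AS1, which shares no exon base with the ADP/ATP carrier gene SLC25A5, at 3.0% to 3.9% in all 12 samples. FBXO22-AS1 could not be placed, so that the exon bases it shares with FBXO22 are unknown. The share of AFAP1-AS1 went from 39.8% to 302% over the 12 samples, that of MYLK-AS1 from 2.8% to 98.7%, and that of TP73-AS1 from 12.3% to 1644%. MYLK fell by 3.19 ± 0.16 in positive SW1990 cells, from 8.43 to 10.6 RPKM down to 0.929 to 1.10 RPKM, with MYLK-AS1 between 0.514 and 1.12 RPKM and not called (-0.06 ± 0.37, adjusted p = 0.94). FGD5-AS1 measured 30.1 to 46.4 RPKM with FGD5, a gene known from endothelial cells, at 0 to 0.871 RPKM.

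**Figure D4:**
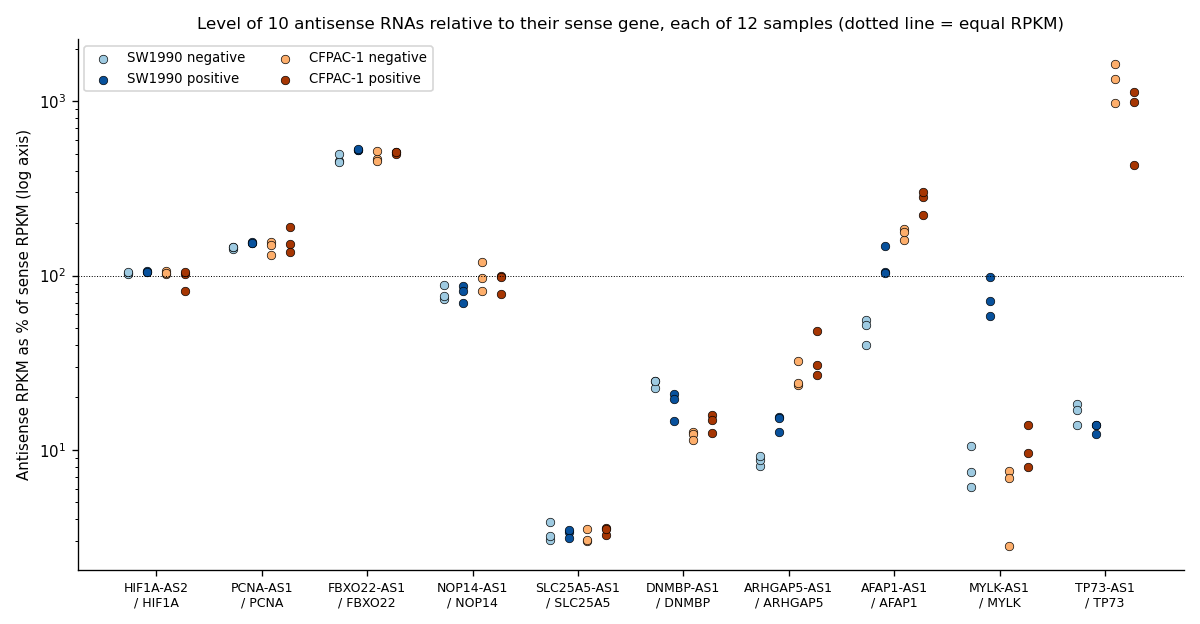
RPKM of 10 antisense RNAs as a percentage of the RPKM of their sense gene, on a log axis, with a point for each of the 12 samples and the dotted line at equal RPKM. HIF1A-AS2, PCNA-AS1 and FBXO22-AS1, whose shared exon bases are unknown, and SLC25A5-AS1 lie in narrow bands, and MYLK-AS1 and TP73-AS1 spread over the groups.

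More antisense RNAs were called between the lines than between the sorted fractions of a line. In negative cells 35 of the 99 antisense RNAs were higher and 26 lower in SW1990 than in CFPAC-1, 35.4% and 26.3% against 40.7% and 28.2% of all tested genes, and in positive cells 24 were higher and 32 lower, 24.2% and 32.3% against 32.9% and 29.3%. The median log2 difference in negative cells was -0.07 for the antisense RNAs and 0.19 for all genes, and in positive cells -0.19 and 0.06. Centring on sample medians moved the median of all genes in negative cells from 0.19 to 0 and the counts to 31 higher and 34 lower, so that the higher share of the called went from 57.4% to 47.7% for antisense RNAs and from 59.1% to 50% for all genes. In both fractions 22 antisense RNAs were higher in SW1990 and 20 were higher in CFPAC-1, and CBR3-AS1 was called in opposite directions. These were 22.2%, 20.2% and 1.01% of the 99, against 27.7%, 21.0% and 2.44% of all tested genes. Its call in negative cells (0.54 ± 0.21, adjusted p = 0.0386) was lost in 5 of the 12 fits that left out 1 library, those without any 1 of the negative SW1990 replicates or negative CFPAC-1 replicate 1 or 3. It was also lost with median centring (0.163), with voom (0.0542) and without the filter on low values (0.0539). Its call in positive cells was lost without positive SW1990 replicate 1 (adjusted p = 0.0665).

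DLX6-AS1 (chr7:96584453-96643400, minus strand) had no read in any CFPAC-1 library. It measured 2.10, 1.92 and 2.13 RPKM in negative and 2.51, 1.54 and 2.01 in positive SW1990 cells, which was at least 27.7-fold and at least 21.0-fold higher than CFPAC-1 when 3 reads per library are taken as the floor. The homeobox gene DLX6, without a shared exon base, was likewise at 0 in CFPAC-1 and at 2.05 to 4.39 RPKM in SW1990.

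TP73-AS1 (chr1:3652075-3663937, minus strand) had the largest difference in favour of CFPAC-1 in both fractions. It measured 0.264, 0.18 and 0.236 RPKM in negative and 0.192, 0.237 and 0.254 in positive SW1990, and 7.89, 6.13 and 6.12 in negative and 8.72, 5.64 and 6.20 in positive CFPAC-1 cells. The log2 difference was -4.38 ± 0.21 in negative and -4.39 ± 0.21 in positive cells (adjusted p of 4.27e-09 and 6.2e-09), and it was not called with sorting in either line (0.01 ± 0.21 in each). TP73, a relative of the tumour suppressor p53, was lower in CFPAC-1 in both fractions, by 1.26 ± 0.29 and 0.90 ± 0.29 on the log2 scale. The pair shares 32 exon bases.

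In negative cells the other antisense RNAs with the largest differences were H1FX-AS1 (3.14 ± 0.26), HOXA-AS5 (2.59 ± 0.51) and TPT1-AS1 (2.31 ± 0.21), higher in SW1990, and MRVI1-AS1 (-2.54 ± 0.52), ARHGAP5-AS1 (-2.38 ± 0.16) and DICER1-AS1 (-2.29 ± 0.47), higher in CFPAC-1. H1FX-AS1, antisense to a linker histone gene, measured 16.6, 8.54 and 14.9 RPKM in negative SW1990 against 1.19, 1.54 and 1.40 in negative CFPAC-1 cells, with H1FX itself not called (0.46 ± 0.20, adjusted p = 0.058). DICER1-AS1 measured 1.39, 1.18 and 2.32 against 8.19, 7.75 and 8.18 RPKM, while DICER1, the nuclease that matures microRNAs, did not pass the test (0.01 ± 0.14, adjusted p = 0.94). MRVI1-AS1 was at 0 in all SW1990 samples and had 6 to 14 reads in negative CFPAC-1 libraries, at least 3.1-fold higher. The negative samples of the lines did not overlap for any of these 6, which was a condition for naming them.

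In positive cells MCF2L-AS1 (3.43 ± 0.53), TPT1-AS1 (2.44 ± 0.21) and C1QTNF9B-AS1 (2.17 ± 0.39) were higher in SW1990 and HOXB-AS3 (-2.57 ± 0.21) and ENTPD3-AS1 in CFPAC-1, beside DLX6-AS1 and TP73-AS1. MCF2L-AS1 measured 1.87, 3.16 and 1.91 RPKM in positive SW1990 against 0.0662, 0 and 0.521 in positive CFPAC-1 cells, with MCF2L higher in SW1990 by 3.30 ± 0.27. C1QTNF9B-AS1 measured 0.399, 0.586 and 0.499 RPKM in positive SW1990 against 0.0422, 0.0589 and 0 in positive CFPAC-1 cells. ENTPD3-AS1 was at 0 in all positive SW1990 samples and at 0.656, 0.366 and 0.197 RPKM in positive CFPAC-1 cells, at least 4.96-fold higher. HOXB-AS3, from the HOXB homeobox cluster, measured 3.27, 3.63 and 4.67 against 25.3, 20.4 and 23.8 RPKM. The calls named for either fraction held in all 12 fits that left out 1 library.

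**Figure D5:**
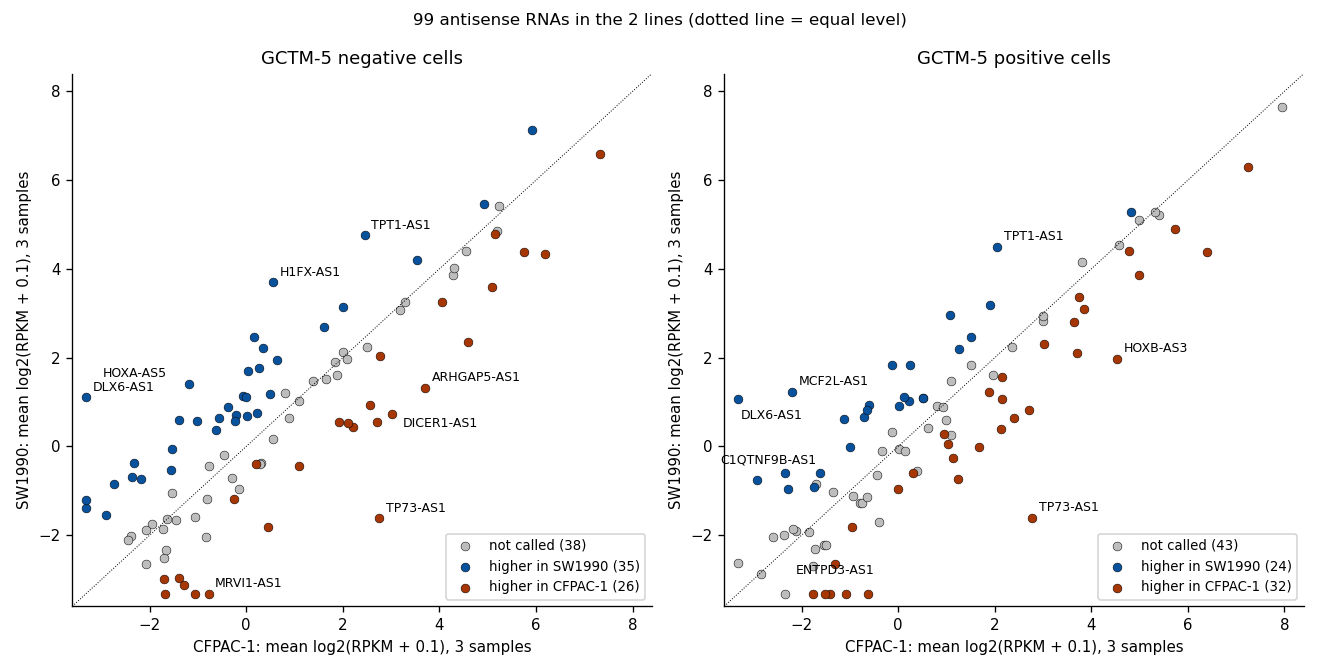
Mean log2(RPKM + 0.1) over 3 samples of the 99 tested antisense RNAs in CFPAC-1 (horizontal) and SW1990 (vertical), for negative cells on the left and positive cells on the right. Blue points were called higher in SW1990 (35 and 24) and brown points higher in CFPAC-1 (26 and 32), and DLX6-AS1 and TP73-AS1 lie farthest from the dotted line of equal level in both panels.

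Of the 92 pairs, 35 were called in the same direction and 11 in opposite directions between the lines in negative cells, and 30 and 6 in positive cells. Of all tested genes 40.7% were higher and 28.2% lower in SW1990 in negative cells, and 32.9% and 29.3% in positive cells. Whether pairs were called together more often than these shares give was not tested. Among the opposite pairs, AFAP1-AS1, CRYM-AS1, GNAS-AS1, TP73-AS1 and ZNRD1-AS1 went against their sense genes in both fractions. CRYM-AS1 measured 0.570, 0.634 and 0.245 RPKM in negative SW1990 against 0.134, 0 and 0.0435 in negative CFPAC-1 cells and was higher in SW1990 by 1.89, with CRYM, a thyroid hormone binding protein gene, lower by 1.43. GNAS-AS1, from the imprinted locus of the G protein alpha subunit, measured 0, 0 and 0.0977 RPKM in negative SW1990 against 0.133, 0.119 and 0.477 in negative CFPAC-1 cells, a log2 difference of -1.30. It was at 0 in all 3 positive SW1990 samples and at 0.231, 0.368 and 0.173 RPKM in positive CFPAC-1 cells. GNAS was higher in SW1990 by 0.48 and 0.36. The annotation gives CRYM-AS1 no exon base in common with CRYM and GNAS-AS1 1127 with GNAS. The calls of the antisense RNA were lost for CRYM-AS1 in positive cells without positive SW1990 replicate 1 or positive CFPAC-1 replicate 1 (adjusted p up to 0.102), and for GNAS-AS1 in negative cells without negative SW1990 replicate 1 or 2 or negative CFPAC-1 replicate 3 (up to 0.0736). Called against their sense genes in positive cells was further MORC2-AS1 (-0.64), lost without positive SW1990 replicate 2 or positive CFPAC-1 replicate 1 (up to 0.0564). In negative cells these were TRAF3IP2-AS1 (1.03), HLA-F-AS1 (-0.73) and FGD5-AS1 (0.54), which held in all 12 fits, LPP-AS2 (0.67), lost without negative replicate 1 of either line (up to 0.0612), GLIS3-AS1 (1.37), held in 5 of the 12 fits (up to 0.131), and CYP1B1-AS1. Median centring also ended the calls of LPP-AS2 (0.0654) and GLIS3-AS1 (0.0790), and that of GLIS3-AS1 was lost with a pseudocount of 1 (0.226) and without the filter (0.0513). The call of CRYM-AS1 in positive cells was lost with a pseudocount of 0.01 (0.0795).

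In negative cells CYP1B1-AS1 was higher in SW1990 by 1.96 ± 0.43 (adjusted p = 0.00142) while CYP1B1, at 1.43 to 3.66 RPKM against 45.3 to 53.9 RPKM, was lower by 4.25 ± 0.34. CDKN2B had no read in any SW1990 library and 10.1 to 16.8 RPKM in CFPAC-1, whereas CDKN2B-AS1 measured 0.471 to 0.800 RPKM in SW1990 and 0.588 to 1.15 in CFPAC-1. The annotation gives this pair no shared exon base, but it gives CDKN2B-AS1 593 exon bases in common with CDKN2A on the opposite strand. Whether reads of CDKN2A were counted for CDKN2B-AS1 was not tested.

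The 4 head to head pairs whose sequences are shown were chosen because their antisense RNAs differed between the lines. Each of these antisense RNAs was called in negative cells, where 40.7% of all tested genes were higher and 28.2% lower in SW1990. In positive cells TPT1-AS1 (2.44 ± 0.21, adjusted p = 1.18e-06) and FLVCR1-AS1 were called, and MLLT4-AS1 (-0.94 ± 0.40, adjusted p = 0.057) and BOLA3-AS1 (0.57 ± 0.25, adjusted p = 0.069) did not pass the test. MLLT4-AS1 was lower in negative SW1990 than in negative CFPAC-1 cells by 2.27 ± 0.40 (adjusted p = 0.000282), and MLLT4 was lower by 1.40 ± 0.12. BOLA3-AS1, paired with a gene of iron-sulphur cluster assembly, measured 2.88, 3.29 and 3.83 against 1.57, 1.05 and 0.790 RPKM in the same cells and was higher in SW1990 by 1.51 ± 0.25 (adjusted p = 0.000199), with BOLA3 higher by 1.55 ± 0.25. TPT1-AS1 was at 24.5, 27.03 and 29.6 RPKM in negative SW1990 and 5.69, 5.48 and 4.96 in negative CFPAC-1 cells, a difference of 2.31 ± 0.21 (adjusted p = 1.22e-06), and TPT1, the abundant translationally controlled tumour protein gene, was higher in SW1990 by 0.73 ± 0.16. FLVCR1-AS1 was lower in SW1990 in negative and positive cells by 1.56 ± 0.24 and 1.77 ± 0.24, at 1.06 to 2.16 against 3.83 to 5.97 RPKM. The haem exporter gene FLVCR1 did not pass the test between the lines in negative (-0.14 ± 0.11, adjusted p = 0.28) or positive cells (0.15 ± 0.11, adjusted p = 0.28).

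Antisense RNAs were also grouped by lists of the role of the sense gene, which do not hold every antisense RNA of a role. Of the list for cell cycle and DNA genes 5 antisense RNAs were in the table and all 5 were tested. In CFPAC-1, PCNA-AS1, RAD21-AS1 and MCM3AP-AS1 rose and CDKN2B-AS1 fell, while OIP5-AS1 was not called (0.23 ± 0.10, adjusted p = 0.077), and in SW1990 PCNA-AS1 was called and the other 4 were not. Of all tested genes 22.3% were higher and 14.2% lower in CFPAC-1, and the call of MCM3AP-AS1 was lost with median centring and without the filter on low values. The median log2 difference of the 5 was 0.50 in CFPAC-1 and 0.04 in SW1990, against 0.05 and -0.04 over all tested genes. This list was chosen with earlier results of these data known. It leaves out SPAG5-AS1, named for a mitotic spindle gene, which was not called (0.13 in CFPAC-1 and -0.01 in SW1990). The median is therefore no support for a shift of this role. Of 9 antisense RNAs in the list for adhesion, matrix and cytoskeleton genes 6 were tested. In SW1990 ARHGAP5-AS1 rose and MAGI2-AS3 and FGD5-AS1 fell, where 11.3% of all tested genes were higher and 16.9% lower. In CFPAC-1 MYLK-AS1 rose, where these shares were 22.3% and 14.2%. AFAP1-AS1 and MLLT4-AS1, which rose in SW1990, and LPP-AS2, which rose in CFPAC-1, are not in this list although their sense genes belong to this role, and no median is given for it. The lists for transcription factors, HOX clusters and signalling genes leave out GLIS3-AS1, HOXA-AS5, IGF2-AS1 and BDNF-AS1, whose values are given above, and no count is given for them.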

How the data were processed

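Polyadenylated RNA of 12 samples was sequenced. The deposited table holds RPKM values, which the authors made by aligning paired reads to GRCh37 (hg19 per the labels) and normalising counts by library size and gene length with QuasR. Its version, the annotation and the use of strand are not given in the sources used here. Members and lists were chosen with earlier results of these data known.

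Genes with a mean of at least 0.1 RPKM entered a fit of 4 group means on log2(RPKM + 0.1) with limma 3.58.1 (R 4.3.3, intensity trend, 2-sided, Benjamini-Hochberg over 16236 genes). Since the table holds RPKM, limma replaced the count tool of the study's methods. Whole reads were recovered within 0.01 for all 19654 genes above 0, from totals estimated per library, and served voom, an alternative. The fit and the recovery of reads were tested on simulated data. Genes were placed with GENCODE v44lift37 on GRCh37, 35 through a RefSeq synonym, and motif shares come from RefSeq promoters (GRCh38.p14). Bounds against a group at 0 take 3 reads per library as the floor, and cover counting error only.

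Named were the 6 antisense RNAs with the highest mean, in each line up to 6 higher and 6 lower calls with the largest change, 4 each way between the lines, all without overlap and with at least 0.3 RPKM in the higher group, the 6 smallest adjusted p for the difference of changes, opposite pairs (up to 10) and list members. Other named genes were chosen after their values were seen. One antisense RNA that met the rule is not reported here. Alternatives were pseudocounts of 0.01 and 1, no filter, a mean of at least 1 RPKM, median centring, voom, a replicate block, a 2-fold limit with adjusted or unadjusted p (0.01), pairs without shared exon bases, and leaving out each library.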

Additional observations from a re-analysis of the deposited data

Results flagged for a closer look

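The change with sorting differed between SW1990 and CFPAC-1 for 12 antisense RNAs by the interaction term of the limma fit. The values are the SW1990 change minus the CFPAC-1 change in log2(RPKM + 0.1). The difference was -2.89 for CYP1B1-AS1, -2.57 for KCNJ2-AS1, -1.69 for MAGI2-AS3, -1.52 for PCNA-AS1, -1.25 for FBXL19-AS1, -1.21 for CBR3-AS1 and -0.41 for FGD5-AS1, and these 7 held in all 12 fits that left out 1 library. The call of FGD5-AS1 was lost with median centring (adjusted p = 0.113).

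MYLK-AS1 (-1.68) held in 4 of the 12 fits, those without negative SW1990 replicate 1, positive SW1990 replicate 1 and negative CFPAC-1 replicate 1 or 3 (adjusted p up to 0.0814 in the others), and was lost with voom (0.0576) and with median centring (0.0537). H1FX-AS1 (-1.25) was lost without negative SW1990 replicate 1 or 3, positive SW1990 replicate 1, negative CFPAC-1 replicate 1 or 3 or positive CFPAC-1 replicate 1 or 3 (up to 0.0669), and with voom (0.0646). DNMBP-AS1 (-1.19) was lost without negative SW1990 replicate 1, negative CFPAC-1 replicate 2 or 3 or positive CFPAC-1 replicate 1 (up to 0.0634). ARHGAP5-AS1 (0.77) was lost without negative SW1990 replicate 1 or 2, positive SW1990 replicate 2, negative CFPAC-1 replicate 2 or positive CFPAC-1 replicate 1 or 2 (up to 0.0689).

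RFPL3-AS1, antisense to a gene of the ret finger protein-like family, had a difference of 1.40 ± 0.46 (adjusted p = 0.0413). It measured 0.601, 0.232 and 0.262 RPKM in negative and 0.756, 0.409 and 0.567 in positive SW1990, and 0.397, 0.565 and 0.465 in negative and 0.295, 0.247 and 0.155 in positive CFPAC-1 cells. Neither change passed the test within its line, and the difference held in 3 of the 12 fits, those without negative SW1990 replicate 1, positive SW1990 replicate 2 and positive CFPAC-1 replicate 1 (up to 0.0951 in the others). It was lost with voom (0.0715). Groups of 3 samples are too small for a test of single outlying samples.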

How the results depend on the processing

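Of 121 called values of named antisense RNAs, 83 held in every fit that left out 1 library and 38 did not. Over 2262 recomputed values, 2086 were still called, 176 were not and 0 reversed direction. These include fits without a library from outside the groups compared. Such fits keep the log2 change and move only the pooled spread, so that they could not reverse direction. Pseudocounts changed the size of low antisense RNAs more than their calls. Low read numbers limit what can be said of the antisense RNAs under about 1 RPKM.

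In counts of higher and lower antisense RNAs, a 2-fold limit with adjusted p gave 1 and 6 in SW1990, 6 and 5 in CFPAC-1 and 15 and 18 between the lines in positive cells. With unadjusted p under 0.01 these were 1 and 6, 6 and 4, and 13 and 18. Pairs called in the same direction were then 5 in SW1990 and 2 in CFPAC-1, and 0 were opposite, under both limits. A mean of at least 1 RPKM left 6 lower in SW1990, 17 lower in negative SW1990 than CFPAC-1 cells, and 3 pairs in the same direction in SW1990, by its smaller number of genes. Without shared exon bases 1 pair in SW1990 and 2 in CFPAC-1 were called in the same direction and 0 were opposite. The opposite pair of CFPAC-1 went to 0 with median centring, no filter, a pseudocount of 0.01 or the replicate block, and to 2 with voom, where the cause was not tested. Shares of all tested genes under the settings of this section are not given. The counts here therefore do not compare antisense RNAs with other genes.

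Leaving out 1 library gave 4 to 8 higher and 8 to 11 lower in SW1990, 8 to 16 and 4 to 12 in CFPAC-1, and 8 to 16 differences of change. Between the lines it gave 31 to 36 and 25 to 28 in negative and 20 to 26 and 29 to 33 in positive cells. For SW1990, 5 to 9 pairs moved in the same direction and 0 to 1 in opposite ones. For CFPAC-1 these were 7 to 10 and 0 to 1.

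The paper describes triplicate sorts, and whether same-numbered positive and negative samples came from the same sort is not settled here. Deviations of same-numbered samples correlated at 0.33, 0.06 and 0.22 in SW1990 and at -0.05, 0 and -0.07 in CFPAC-1. In SW1990 positive replicates 1 and 3 correlated best with their own number and replicate 2 did not, and in CFPAC-1 no positive sample correlated best with its own number. The replicate block was shared by both lines, so that it did not model pairs within a line. With it the counts were 9 and 11 in SW1990, 14 and 10 in CFPAC-1, 14 differences of change, 35 and 27 in negative and 22 and 32 in positive cells.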
